A study of Mus musculus with 12 samples.

Results

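The genes described here encode the proteins of the cytosolic ribosome. They were chosen by symbol alone: names that begin with Rpl or Rps and a number, with Rplp0, Rplp1 or Rplp2, or with Rpsa were taken, and 10 Rps6k kinase genes and 6 symbols marked as pseudogenes were left out. This gave 86 of the 23847 rows measured. FPKM counts the sequenced fragments of a gene per kilobase of transcript, relative to all mapped fragments, and 83 of the 86 genes reached 1 FPKM in at least 1 sample and entered the tests, as did 11191 rows in all. The 86 genes were 43 large subunit proteins, 31 small subunit proteins, the 3 stalk proteins, 8 variants or testis-type paralogs, and Rps19bp1, which binds a ribosomal protein and is none itself. They lay on 19 chromosomes, 14 of them on chromosome 7.

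All samples were bone marrow-derived macrophages (BMDMs) of wild-type C57BL/6 mice aged 8 to 12 weeks, grown from marrow for 6 days with L929 supernatant, a source of the growth factor M-CSF. Control cells received nothing more. IL-4 cells had the cytokine IL-4, which drives alternative polarization, at 20 ng/ml for 24 h. LPS cells had bacterial lipopolysaccharide, an inflammatory stimulus, at 100 ng/ml for 3 h, and IL-4+LPS cells had both, IL-4 first. There were 3 samples per group, with the numbers 1 to 3, and so 12 over the 4 groups, and the p-values below measure the spread between these samples. The paper describes the RNA-seq of these treatments as coming from 3 animals and more than 1 experiment. The labels do not say which sample belongs to which experiment, so the spread may include differences between experiments. Cultured marrow cells are a model of macrophages outside a tissue.

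A ribosome is built from ribosomal RNA and a single copy of most of these proteins, with the stalk proteins Rplp1 and Rplp2 present in more. Their messages are among the most abundant of a cell, and most begin with a 5′ terminal oligopyrimidine (TOP) tract, a run of C and T at the transcription start. Through this tract mTOR signaling, Larp1 and the 4E-binding proteins control translation and stability of the message. Myc is known for raising transcription of ribosomal protein genes and of the factors that assemble ribosomes.

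The pyrimidine run was visible at the annotated starts of many members. RefSeq promoters (GRCm38.p6, the build called mm10 in the files) were matched by symbol for 57 of the 77 large subunit, small subunit and stalk genes, and 48 of the 57 began within 10 bases of the start in the files. The sequences below run from 60 bases before the start to 30 bases after it, 5′ to 3′ on the gene's strand, and capitals mark the longest run of C and T beginning with C within a search window from 30 bases before the start to 50 after it. Rps6, a small subunit protein phosphorylated by S6 kinases, and the stalk protein Rplp2 show the usual form. Rpl13a, Rps9 and Rpl7a moved apart from other members in a comparison below, and Rps27 was among the lowest in level. Rps19bp1 is shown as the gene that is no ribosomal protein, and Rpl24, which was called higher after LPS, has no capitals because the longest run in that search window, of 4 bases, lies past the printed bases. Bases further upstream were not searched for runs.
Rps6, chr4:86857338-86857427, minus strand: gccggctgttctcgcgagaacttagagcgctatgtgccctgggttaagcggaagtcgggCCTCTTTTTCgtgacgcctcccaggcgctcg
Rpl13a, chr7:45128716-45128805, minus strand: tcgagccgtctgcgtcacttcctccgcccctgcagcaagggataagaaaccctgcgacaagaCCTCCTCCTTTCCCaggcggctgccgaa
Rps9, chr7:3703981-3704070, plus strand: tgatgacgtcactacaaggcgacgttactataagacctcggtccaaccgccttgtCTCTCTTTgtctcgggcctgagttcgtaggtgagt
Rplp2, chr7:141447591-141447680, plus strand: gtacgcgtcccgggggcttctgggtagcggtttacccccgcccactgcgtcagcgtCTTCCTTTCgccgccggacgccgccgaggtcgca
Rpl7a, chr2:26910747-26910836, plus strand: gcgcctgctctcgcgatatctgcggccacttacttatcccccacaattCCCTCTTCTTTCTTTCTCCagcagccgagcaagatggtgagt
Rps27, chr3:90213619-90213708, minus strand: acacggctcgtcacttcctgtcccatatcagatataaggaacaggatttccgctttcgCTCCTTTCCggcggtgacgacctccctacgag
Rps19bp1, chr15:80264277-80264366, minus strand: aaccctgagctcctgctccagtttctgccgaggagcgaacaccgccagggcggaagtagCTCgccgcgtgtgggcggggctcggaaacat
Rpl24, chr16:55966215-55966304, plus strand: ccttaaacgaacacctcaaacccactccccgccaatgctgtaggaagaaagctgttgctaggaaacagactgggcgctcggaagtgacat

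The run lay across or next to the start in the 6 ribosomal protein genes with capitals, was 19 bases long in Rpl7a and 14 in Rpl13a, and in the search window was 3 bases long in Rps19bp1. From 30 bases before the start to 50 after it, the longest run had a median of 10 bases in the 57 genes and of 5 over 32851 promoters. For each of the 57 genes the RefSeq start nearest that in the files was taken. The 32851 promoters were not chosen that way, which limits the comparisons that follow. A run of 8 or more was in 42 of the 57 (73.7%) and in 23.1% of all promoters. The TOP letters CTTTTC, with the forms CTTTCC and also CTCTTTC, searched there on the gene's strand only and able to overlap each other, were in 45.6% against 7.0%. Over the 250 bases before and 50 after the start, on both strands, the ETS core CCGGAAG was in 42.1% against 8.9% and the SP1 core GGGCGG in 59.6% against 35.7%. The YY1 core AAGATGGC was in 7.0% against 2.7% and TATAAA in 8.8% against 13.6%. The promoters of the 57 genes also held more G and C, with a median of 58.0% against 52.7%, and a match describes letters, not binding.

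The members were highly expressed in every group. The mean FPKM over the 12 samples had a median of 146 over the 83 members tested and of 8.84 over all rows tested, and 80 members stayed at 10 FPKM or more in every sample. Small subunit genes had a median level of 210.1 FPKM and large subunit genes of 124 FPKM. The highest were the stalk gene Rplp1 at 1056 FPKM, Rps9 at 716 and Rpl8 at 675. The lowest of the core genes were Rps27 at 3.86 FPKM and Rpl26 at 4.67. The testis-type paralogs Rpl10l, Rpl3l and Rpl39l stayed under 1 FPKM in every sample, and Rpl10l was listed at 0 in all 12. The order of levels barely moved, with a Spearman rho over 83 genes of 0.989 between control and IL-4, 0.995 between control and LPS and 0.989 between control and IL-4+LPS, which describes genes that keep their own length and sequence across groups.

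Much of a member's sequence occurs in other genes too. The longest GENCODE transcript of 82 tested members shared a median of 47.4% of its 50-base words with transcripts of other genes. Both strands of those transcripts were searched. The highest value was 95.1% in Rpl35, whose chief other gene, Wdr38, held 58.97%. The count does not tell copies elsewhere in the genome from transcripts annotated at the same place. The share was 81.7% in Rpl24, 63.1% in Rps27, 47.4% in Rpl26, 14.2% in Rps9 and 5.19% in Rpl22. It was under 10% in 9 members and 50% or more in 37. How reads that match several genes were divided is not known from the tables, so levels of members with much shared sequence are uncertain. The paired reads were longer than these words, so a shared word need not mean a shared read. Across the 82 genes the rank correlation of shared sequence was -0.23 with the level and -0.04 with the log2 fold change after LPS, both given as descriptions.

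**Figure D1:**
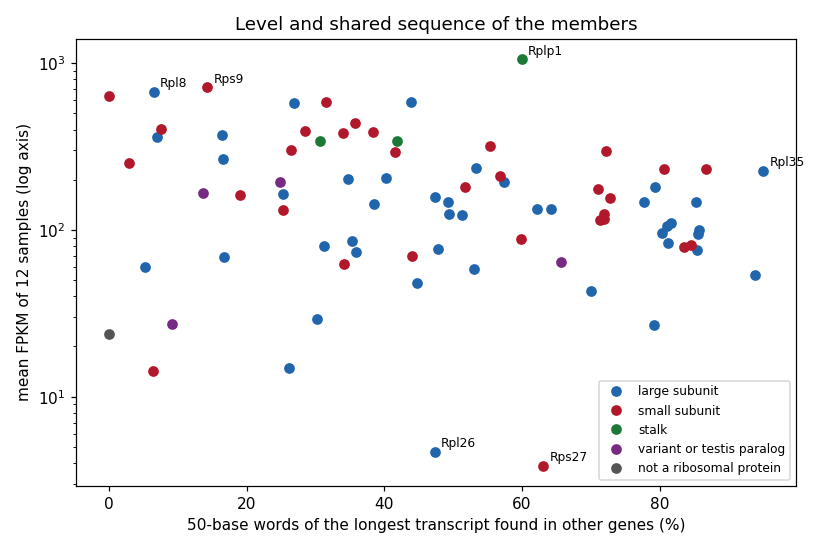
Mean FPKM of 12 samples (log axis) against the percent of a member's 50-base words that other genes share, 1 point for each of 82 members, coloured by role. Levels spread widely at every degree of sharing, and Rpl26 and Rps27 lie below 5 FPKM.

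FPKM totals per sample lay between 457583 and 495025. Fragment counts were not in the tables, so no counting error is given. Within groups the mean Pearson r of samples 2 and 3 was 0.996 over the members, and that of pairs with sample 1 was 0.989. The treatments left their known marks, with a group mean of Retnla of 11.4 FPKM in control and 12175 in IL-4, and of Tnf of 15.8 FPKM in control and 1362 in LPS. The macrophage genes Csf1r, Cd68 and Emr1 were at 454 FPKM or more in every group mean, and 9 of 10 macrophage genes were measured, with sums of 20292 to 21777 FPKM in control, 16208 to 17364 in LPS, 8625 to 8901 in IL-4 and 7293 to 7657 in IL-4+LPS. The 7 neutrophil genes measured summed to 375 to 969 FPKM in control, 568 to 1167 in LPS, 235 to 448 in IL-4 and 469 to 941 in IL-4+LPS, and the T, B, dendritic, red, stromal and mast cell lists to 11.7 or less. Proliferation genes summed to 312 to 418, 214 to 222, 495 to 512 and 280 to 315 FPKM in the same order. The larger sum with IL-4 does not describe most of these 12 genes. In the fit described below 1 was higher and 8 lower with IL-4, at a median log2 fold change of -0.59, against 16.0% and 21.0% of all rows. The part of these lists in the results below was not tested, and in bulk samples fewer cells of a type and less RNA per cell cannot be told apart.

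The members took a smaller share of all FPKM in macrophages given LPS. In control samples 1 to 3 they held 3.79%, 3.91% and 3.94%, and in IL-4 samples 4.07%, 3.83% and 3.77%. In LPS samples they held 3.06%, 3.18% and 3.08%, and in IL-4+LPS samples 3.35%, 3.48% and 3.29%. All 6 samples with LPS lay below all 6 without it, IL-4+LPS lay above LPS in every sample, and control and IL-4 overlapped. The mean share was 3.88% ± 0.08 in control, 3.10% ± 0.06 in LPS, 3.89% ± 0.16 in IL-4 and 3.37% ± 0.10 in IL-4+LPS (SD, n = 3). Relative to control the share with LPS fell by 19.95%, and relative to IL-4 the share with both fell by 13.27%. The share of the small subunit went from 1.80% ± 0.04 in control to 1.45% ± 0.04 in LPS and that of the large subunit from 1.59% ± 0.02 to 1.26% ± 0.02 (SD, n = 3).

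The typical gene also had a smaller value with LPS. Over the 8362 rows at 1 FPKM or more in every sample, the median was 14.2 FPKM ± 0.3 in control, 11.0 ± 0.2 in LPS, 14.0 ± 0.2 in IL-4 and 10.9 ± 0.3 in IL-4+LPS (SD, n = 3). The summed FPKM of the members over that median was 1255 to 1268 in control, 1250 to 1346 in LPS, 1263 to 1397 in IL-4 and 1376 to 1615 in IL-4+LPS. LPS and control overlapped in this ratio, so the members were lower with the FPKM total held fixed and not with the median gene held fixed. Quantile normalization, which moved the median of all rows after LPS by 0.32 on the log2 scale, left the members lower, with a median log2 fold change of -0.49 and 72 of 83 called lower by limma. Of the 11191 rows tested it called 4326 lower and 2903 higher. FPKM gives no number of molecules per cell, and the tables do not tell which scale holds.

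**Figure D2:**
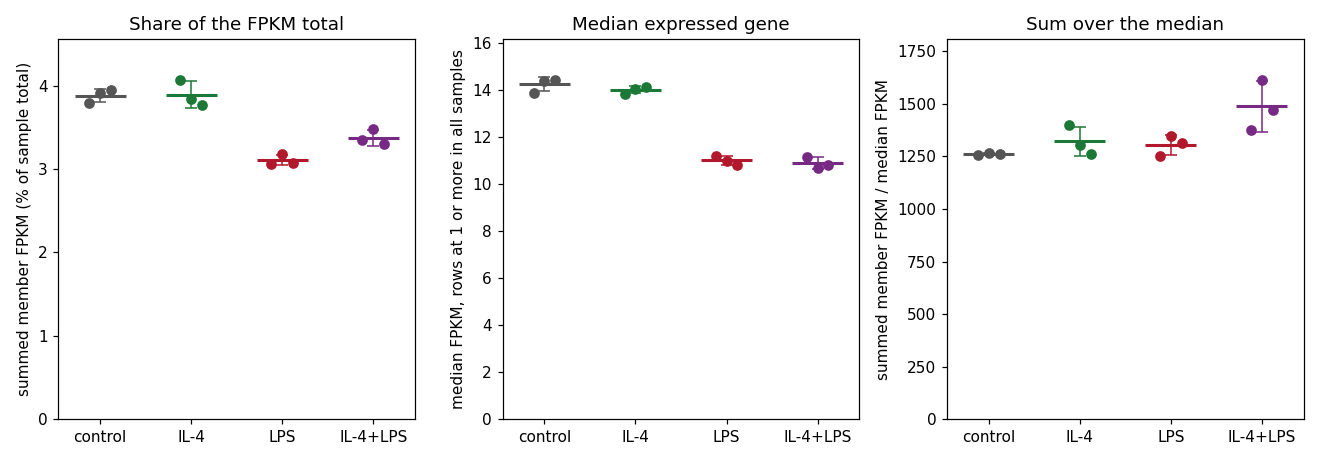
Each point is a sample, lines are group means and bars are SDs (n = 3), for the members' share of the FPKM total in percent, the median FPKM of rows at 1 or more in every sample, and the members' sum over that median. The share and the median are lower in the 6 samples with LPS, and the ratio is not.

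LPS alone lowered most members on the deposited scale. Of 83 members 63 were lower in LPS than in control and 1 was higher (limma on log2(FPKM + 1), Benjamini-Hochberg adjusted p under 0.05), against 57.7% lower and 16.9% higher of all rows tested. The median log2 fold change was -0.33 over the members and -0.44 over all rows. After each sample was scaled to its median gene, which moved the median of all rows by 0.30, the counts were 9 higher and 1 lower, against 26.5% higher and 39.8% lower of all rows, and the medians were 0.04 and -0.14. The changes were small, below 1.5-fold in 81 of the 83 members. In 64 members all LPS samples lay below all controls and in 1 above, against 58.7% and 17.9% of all rows. Separate groups are thus common at this sample size.

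Among the 43 large subunit genes, 35 were lower and 1 was higher. Rpl22, which also binds cellular RNA and is dispensable for general translation, read 71.5, 70.3 and 69.5 FPKM in control and 48.7, 48.5 and 45.1 in LPS. The groups lay far apart, and the log2 fold change was -0.56 ± 0.08 (SE) with adjusted p = 6.3e-05 by limma. Rpl10a, part of the L1 stalk, read 168, 163 and 170.2 FPKM in control and 123, 113 and 113 in LPS, at -0.52 ± 0.07. Rpl3, which borders the peptidyl transferase center, read 105, 111 and 115 FPKM in control and 75.6, 81.0 and 78.9 in LPS, at -0.49 ± 0.06. None of these 3 passed on the median scale, where they were at -0.20, -0.15 and -0.12. Rpl11, which can bind Mdm2 when ribosome assembly is disturbed, was lower at -0.39 ± 0.07, and its 5S partner Rpl5 did not pass, at -0.27 ± 0.12 with adjusted p = 0.069 by limma.

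Among the 31 small subunit genes, 25 were lower, and the log2 fold change of all 31 was negative. Rpsa, also known as the laminin receptor, read 78.8, 80.4 and 77.9 FPKM in control and 58.6, 56.0 and 55.3 in LPS. No sample of one group came near the other, at -0.47 ± 0.05 with adjusted p = 9.8e-06 by limma, and at -0.11 without a call on the median scale. Rps3, which lines the entry of the message channel, read 251, 284 and 288 FPKM in control and 197, 226 and 208 in LPS, at -0.39 ± 0.07. Rps27 read 8.58, 3.87 and 6.15 FPKM in control and 3.40, 3.05 and 1.44 in LPS, groups that lay apart at a low level, at -0.98 ± 0.26. Rps19, a gene mutated in Diamond-Blackfan anemia, did not pass, with 105, 167 and 158 FPKM in control and 90.4, 122 and 109 in LPS. Rps6 did not pass either, at -0.14 ± 0.08 with adjusted p = 0.13 by limma.

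Of the stalk genes, Rplp0, a reference gene in many assays, read 390.2, 383 and 381 FPKM in control and 313, 300.2 and 291 in LPS. All LPS samples lay below all controls, at -0.35 ± 0.06 on the deposited scale and 0.02 on the median scale. Rplp1 read 976, 1188 and 1200.4 FPKM in control and 753, 900.3 and 938 in LPS, at -0.38 ± 0.12, and its call ended without control replicate 2 (-0.33), control replicate 3 (-0.32) or LPS replicate 1 (-0.28). Rplp2 did not pass, at -0.19 ± 0.14.

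Rpl24 was the member called higher after LPS on the deposited scale. This large subunit protein forms a bridge to the small subunit. It read 105, 92.0 and 99.8 FPKM in control and 113, 131 and 131 in LPS, so that all LPS samples lay above all controls. The log2 fold change was 0.33 ± 0.10 with adjusted p = 0.0094 by limma, and 0.70 on the median scale, and under quantile normalization it was 0.18 without a call. With IL-4 it read 101, 94.4 and 90.0 FPKM, and with IL-4+LPS 106, 133 and 119, again without overlap. That difference was 0.32 ± 0.10 with adjusted p = 0.012 by limma, and the call ended without IL-4+LPS replicate 2 (0.24). Of its 50-base words, 69.4% are also in the annotated gene Gm28037.

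**Figure D3:**
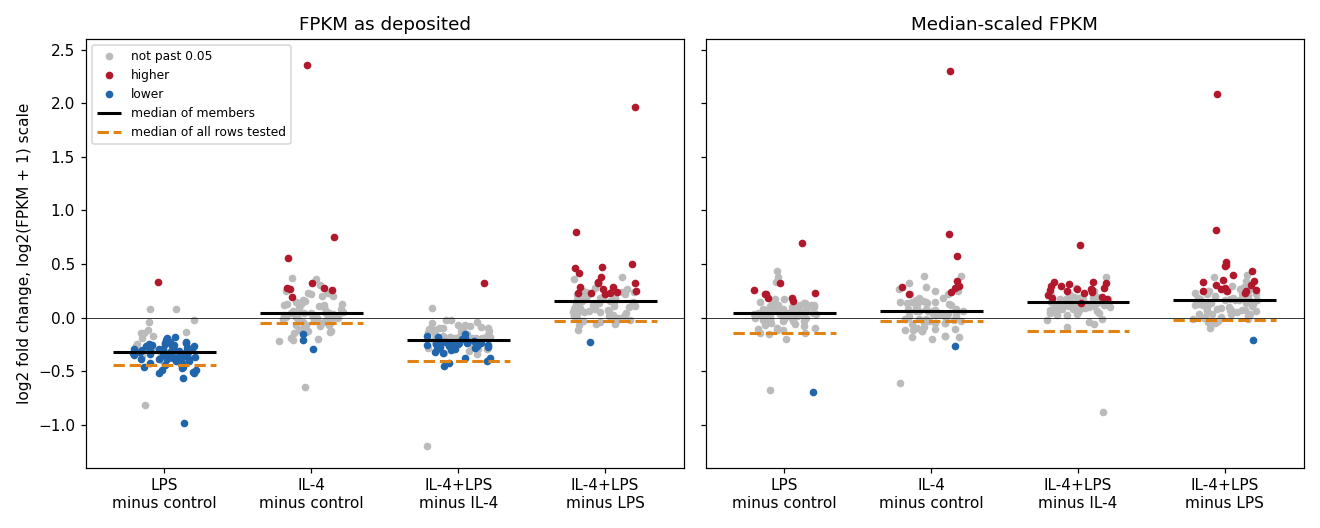
Log2 fold change on the log2(FPKM + 1) scale of 83 members in 4 comparisons, each point 1 gene, on deposited values and on median-scaled values, with coloured points for adjusted p under 0.05. After LPS alone the members' median is -0.33 on deposited values and 0.04 on median-scaled values.

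In cells pretreated with IL-4, LPS again lowered many members on the deposited scale. Of 83 members 35 fell from IL-4 to IL-4+LPS and 1, Rpl24, rose, against 57.9% lower and 15.0% higher of all rows tested (limma). The median log2 fold change was -0.21 over the members and -0.41 over all rows. In 45 members all IL-4+LPS samples lay below all IL-4 samples and in 1 above, against 58.9% and 15.7% of all rows. On the median scale, which moved the median of all rows by 0.28, 20 members were higher and 0 lower by limma, with 22 at an unadjusted p under 0.05 in either direction, against 23.5% higher and 36.3% lower of all rows. Of the 35 members called lower here, 34 were among the 63 called lower after LPS alone. That is 97.1% of the shorter list and 54.0% of the longer. Those comparisons share no sample but come from the same fit, with the same estimate of spread for a gene. After LPS alone 75.9% of members and 57.7% of all rows were lower, and the overlap over all rows was not counted.

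Rpl22 read 80.4, 65.6 and 67.2 FPKM in IL-4 and 52.1, 52.4 and 50.2 in IL-4+LPS, without overlap, at -0.45 ± 0.08. Rpl13a, known to leave the ribosome of interferon-treated monocytes and silence inflammatory messages, read 258, 229 and 226 FPKM in IL-4 and 162, 193 and 177 in IL-4+LPS. Its groups did not overlap, at -0.42 ± 0.10 with adjusted p = 0.0022 by limma. After LPS alone it was at -0.51 ± 0.10, with 188, 222 and 227 FPKM in control and 139, 153 and 153 in LPS. On the median scale Rpl22 and Rpl13a were at -0.09 and -0.06 after IL-4, without a call. Of the stalk genes none passed here, and Rplp0 was nearest at -0.12 ± 0.06 with adjusted p = 0.08 by limma.

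IL-4 alone moved few members past the threshold. Of 83 members 9 were higher and 3 lower than in control by limma, which is 10.8% and 3.6%, against 16.0% higher and 21.0% lower of all rows tested. The median log2 fold change was 0.04 over the members and -0.05 over all rows. In 20 members all IL-4 samples lay above all controls and in 7 below, against 22.1% and 29.5% of all rows. Rps27l, a paralog of Rps27 and a p53 target, read 104, 157 and 154 FPKM in control and 289, 212 and 199.7 in IL-4. All IL-4 samples were above all controls, at 0.75 ± 0.21 with adjusted p = 0.018 by limma, and the call ended without control replicate 1 (0.56) or IL-4 replicate 1 (0.59).

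Rps9, a small subunit protein near the decoding site, fell with IL-4. It read 779.9, 823 and 832 FPKM in control and 671, 671 and 646 in IL-4, groups more than 100 FPKM apart. The log2 fold change was -0.29 ± 0.06 with adjusted p = 0.0048 by limma and -0.27 on the median scale, and the call held when any single sample was left out. The other members that were lower were Rpl6 at -0.15 ± 0.05 and Rpl7a at -0.20 ± 0.07, which lost the call on the median scale (-0.13 and -0.18). They also lost it in 8 and 7 of the 12 fits without 1 sample, at -0.17 to -0.12 for Rpl6 and -0.23 to -0.19 for Rpl7a, the controls among them.

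The other members that rose with IL-4 included the large subunit genes Rpl8, Rpl12, Rpl13 and Rpl26, the paralog Rpl36al, the small subunit gene Rps2, and Rps19bp1. Rps2, which lies at the entry of the message, read 105, 118 and 115 FPKM in control and 138, 146 and 139 in IL-4. The groups lay apart, at 0.32 ± 0.10, and the call ended without control replicate 1 (0.27), control replicate 3 (0.34), IL-4 replicate 2 (0.30) or IL-4 replicate 3 (0.33). Rps19bp1, a regulator of the deacetylase Sirt1, read 15.3, 23.0 and 22.7 FPKM in control and 26.6, 32.1 and 31.4 in IL-4, at 0.56 ± 0.18, and lost the call without control replicate 1 (0.37), IL-4 replicate 2 (0.51) or IL-4 replicate 3 (0.52). Rpl26 was listed at 0, 3.054 and 2.504 FPKM in control and at 16.5, 9.53 and 9.28 in IL-4. Its fitted change of 2.35 ± 0.54 rests on values far below those of other large subunit genes, and the call ended with a pseudocount of 0.1.

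**Figure D4:**
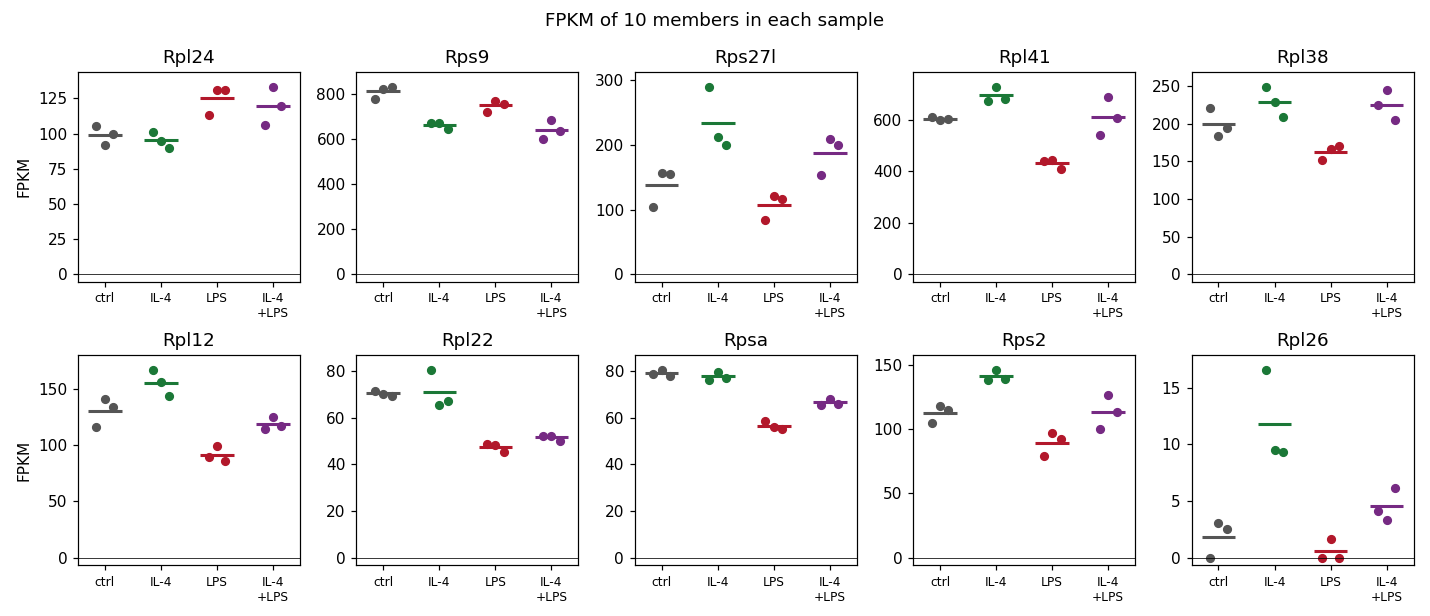
FPKM of 10 members in each of 12 samples, from 0 on each axis, with a line at the mean of each group of 3. Rpl24 is higher with LPS, Rps9 is lower with IL-4, and Rpl26 is listed at 0 in 3 samples.

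With LPS present, members were more often higher than lower after IL-4 pretreatment. Of 83 members 19 were above and 1, Rps9, was below the LPS level by limma, against 15.0% higher and 15.8% lower of all rows tested, and the median scale gave 19 and 1 too. The median log2 fold change was 0.15 over the members and -0.03 over all rows, and 71 of 83 were positive. In 36 members all IL-4+LPS samples lay above all LPS samples and in 1 below, against 20.4% and 21.8% of all rows. The sample numbers were taken to pair these groups, from correlations of 0.386, 0.181 and 0.119 over all rows. Over the members alone those correlations were 0.725, -0.27 and -0.203, so the pairing is uncertain. With the number as a block over all groups, 31 members were higher and 1 lower, against 2287 and 2667 of the 11191 rows. Without IL-4+LPS replicate 2 the 19 became 12.

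Rpl41, the smallest ribosomal protein, read 439.9, 444 and 410.2 FPKM in LPS and 540.1, 688 and 607 in IL-4+LPS. All IL-4+LPS samples lay above all LPS samples, at 0.50 ± 0.08 with adjusted p = 0.0012 by limma. Rpl38, known for the translation of Hox messages, read 152, 166 and 170.1 FPKM in LPS and 225, 244 and 205 in IL-4+LPS, at 0.46 ± 0.10. Rpsa read 65.6, 68.1 and 65.9 FPKM in IL-4+LPS, above all LPS samples and below all controls, at 0.23 ± 0.05 against LPS. Rps27l read 83.6, 122 and 116 FPKM in LPS and 153, 209 and 199 in IL-4+LPS, at 0.80 ± 0.21, and lost the call without LPS replicate 1 (0.63), IL-4+LPS replicate 2 (0.72) or IL-4+LPS replicate 3 (0.75). Rps9 read 720.2, 771 and 758 FPKM in LPS and 601, 683 and 636 in IL-4+LPS, at -0.23 ± 0.06, and lost it without LPS replicate 2 (-0.21) or 3 (-0.22) or IL-4+LPS replicate 1 (-0.18) or 3 (-0.23).

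The members higher with IL-4 were partly shared between cells with and without LPS. In all, 8 were called in both comparisons, which share no sample, and these 8 are 88.9% of the list without LPS and 42.1% of the list with it. Among them were Rpl8, Rpl12, Rpl13, Rpl26, Rpl36al, Rps2 and Rps27l. Both comparisons come from the same fit, with the same estimate of spread for a gene, so a small spread favours a call in both. Of all rows 16.0% were higher without LPS and 15.0% with it, and the overlap over all rows was not counted. Rpl36al, a paralog of the X-linked Rpl36a, read 178, 197 and 186 FPKM in control, 170.4, 152 and 146 in LPS, 214, 237 and 226 in IL-4 and 216, 223 and 187 in IL-4+LPS. With IL-4 it was higher by 0.27 ± 0.09 without LPS and by 0.42 ± 0.09 with it, and the first call ended without control replicate 1 (0.24), control replicate 3 (0.27), IL-4 replicate 2 (0.24) or IL-4 replicate 3 (0.27). Without LPS, Rpl8 lost its call in 6 of the 12 fits without 1 sample (0.16 to 0.23 over the 12) and Rpl12 in 8 (0.17 to 0.31). The paralogs Rpl22l1 and Rps4y2 were not called in any comparison.

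Whether the response to LPS differed after IL-4 was tested as an interaction. No member passed by limma, against 4.58% higher and 4.63% lower of all rows tested, and 9 had an unadjusted p under 0.05. The quantile-normalized fit called 3 members higher, against 559 of the 11191 rows. The median interaction was 0.11 over the members and 0.04 over all rows. It was positive in 70 of 83, meaning a smaller decrease after IL-4 on the deposited scale. On the median scale 68 were positive, but there the members' median after LPS alone was 0.04, which is no decrease. Rpsa was nearest to the threshold, at 0.25 ± 0.07 with adjusted p = 0.052 by limma, followed by Rps12, named after its values were seen, at 0.28 ± 0.08 with adjusted p = 0.053 by limma. With the replicate number as a block 4 members were called higher and 1 lower, against 1145 higher and 1095 lower of the 11191 rows tested. Those higher were Rpsa (adjusted p = 0.017 by limma), Rps12 (0.024), Rplp0 (0.024) and Rpl7a (0.040). Rps19bp1 was lower, at -0.41 (0.020).

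Divided by their own sum, few members passed the threshold. In this fit, free of the scaling between samples, 62 of 83 members passed in none of the 4 comparisons and 21 in at least 1. The division sets the typical change of the members near 0 in advance, and not that of other rows. After LPS the median was -0.005 over the members and -0.18 over all rows. The small counts are therefore no result about the family, and the fit shows only which members depart from it. After LPS 4 were higher and 4 lower, against 24.4% and 40.2% of all rows on that scale. Rpl24 was at 0.65, Rpl7l1 at 0.27, Rps9 at 0.21 and Rps6 at 0.18, while Rps27 was at -0.74, Rpl22 at -0.24, Rpl13a at -0.19 and Rpl12 at -0.19. With IL-4 7 were higher and 4 lower, against 12.2% and 20.2%, with Rps27l at 0.71 and Rps9 at -0.34. After LPS in pretreated cells 2 were higher and 3 lower, against 18.1% and 43.2%, with Rpl24 at 0.51 and Rpl22 at -0.26. Between IL-4+LPS and LPS 6 were higher and 4 lower, against 8.84% and 24.8%, with Rpl41 at 0.33 and Rps9 at -0.40.

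The departures that held without any single sample were few. They were Rpl24 in both LPS comparisons, Rps9 in all but the LPS comparison of pretreated cells, Rpl22 after LPS in pretreated cells, Rpl41 between IL-4+LPS and LPS, and Rps27l and Rpl26 with IL-4. Across 82 members, without Rpl26, the Spearman rho of these relative changes was 0.378 between the 2 LPS comparisons and 0.702 between the 2 IL-4 comparisons. Each pair shares no sample but shares the genes, and the rho is a description.

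**Figure D5:**
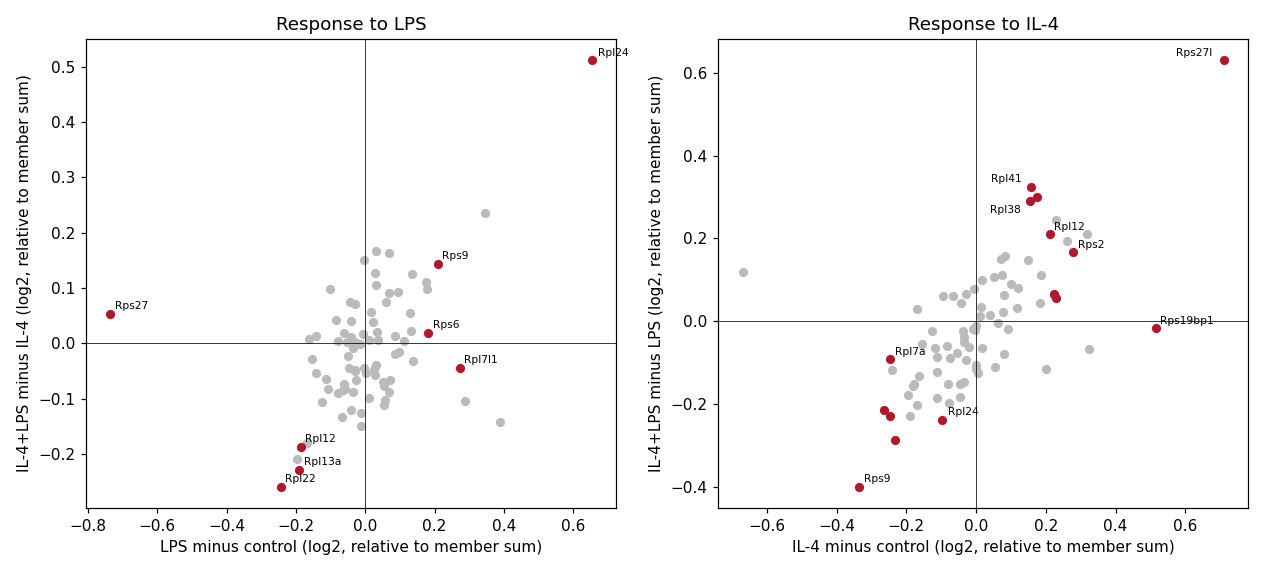
Log2 fold change relative to the members' own sum for 82 members, without Rpl26, with the LPS response in IL-4 cells against that in control cells (left) and the IL-4 response with LPS against that without (right), red where either axis passed the threshold, with members that the text describes named. Rpl24 stands high in both LPS responses, and Rps27l is high and Rps9 low in both IL-4 responses.

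Genes that work with the ribosome were counted from lists in the same fit. Of 3 further cytosolic ribosome genes all were lower after LPS, at a median log2 fold change of -0.28. Of 19 translation genes with TOP messages, 13 (68.4%) were lower after LPS, against 57.7% of all rows, among them the initiation factor Eif4b at -0.996 ± 0.09. In pretreated cells 12 (63.2%) were lower after LPS, against 57.9%. On the median scale the first count became 3 higher and 2 lower, against 26.5% and 39.8% of all rows. The 76 mitochondrial ribosomal protein genes were 4 higher and 51 (67.1%) lower after LPS, against 16.9% and 57.7% of all rows, and 16 higher and 25 lower on the median scale. With IL-4 29 (38.2%) were higher and 1 lower, against 16.0% and 21.0% of all rows. In IL-4+LPS against LPS 31 (40.8%) were higher and 2 lower, against 15.0% and 15.8%.

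Factors that assemble ribosomes were counted in the same way. Of 45 ribosome biogenesis genes, 31 (68.9%) were higher with IL-4, against 16.0% of all rows, at a median log2 fold change of 0.48, beside 9 of 83 ribosomal protein genes at a median of 0.04. After LPS 12 (26.7%) were higher and 9 (20.0%) lower, against 16.9% and 57.7% of all rows, and on the median scale 27 were higher and 1 lower, against 26.5% and 39.8%. Rrs1, an assembly factor of the large subunit, was at 1.78 ± 0.17 after LPS and at 1.16 ± 0.17 with IL-4. In pretreated cells LPS left 3 higher and 22 (48.9%) lower, against 15.0% and 57.9% of all rows. The interaction was called negative for 8 of 45 (17.8%), against 4.63% of all rows.

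Of 25 genes that control ribosome production, 8 (32.0%) were higher and 11 (44.0%) lower after LPS, against 16.9% and 57.7% of all rows. Myc read 6.75, 9.22 and 10.4 FPKM in control, 2.21, 2.43 and 2.83 in LPS, 20.2, 26.3 and 25.1 in IL-4 and 3.25, 2.10 and 2.36 in IL-4+LPS. It was highest in every IL-4 sample and low in all samples with LPS, at 1.35 ± 0.17 with IL-4 and -1.48 ± 0.17 with LPS. Larp1, which binds TOP messages, read 15.4, 16.8 and 16.4 FPKM in control, 60.2, 77.1 and 74.8 in LPS, 20.5, 20.4 and 20.9 in IL-4 and 48.4, 63.8 and 67.0 in IL-4+LPS. All samples with LPS lay above all samples without it, at 2.05 ± 0.12 after LPS alone and 1.48 ± 0.12 in pretreated cells. Eif4ebp1, a 4E-binding protein, was lower after LPS at -0.35 ± 0.07 and in pretreated cells at -0.89 ± 0.07, with an interaction of -0.54 ± 0.10 and adjusted p = 0.0067 by limma. On the median scale Eif4ebp1 was at 0.01 after LPS alone.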

How the data were processed

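Poly-A selected RNA of 12 BMDM samples was sequenced as paired reads. Per the submitters' processing notes and the study's methods, the authors mapped reads to mm10 with TopHat2 2.0.7 and deposited FPKM values per gene from Cufflinks 2.0.2, 1 table per sample. The annotation is not given in the sources used here. Because FPKM divides by the fragments of each sample, genes that rise strongly lower the values of the rest, and fragment counts, hence absolute depth, were not in the tables.

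Rows at 1 FPKM or more in at least 1 sample were transformed to log2(FPKM + 1), which understates changes of low genes. Group means were fitted jointly to the 12 samples (limma 3.58.1, R 4.3.3, intensity trend, Benjamini-Hochberg over all 11191 rows, threshold 0.05). It was repeated after dividing each sample by the members' sum. The fit was tested on simulated data. Shared words were counted in GENCODE vM21 transcripts. Figures used matplotlib 3.10.9 in Python 3.11.15.

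Groups came from the labels. Same-numbered samples were checked for pairing by the correlation of their deviations over all rows. In IL-4+LPS against LPS it was 0.386, 0.181 and 0.119 for numbers 1 to 3, so the number was taken to pair them. Over the members alone it was 0.725, -0.27 and -0.203. In the other comparisons at least 1 value over all rows was under 0.1. Alternatives were a pseudocount of 0.1, no filter, 1 FPKM in 3 samples, quantile normalization, and median and upper-quartile scaling. Others were no trend, only the compared groups, the replicate block, a Tukey test, and each sample left out. Named members were a list set by role, variants, the 3 largest changes each way per comparison with the same sign in every sample number, and the 3 highest and lowest levels. Results of some genes are not reported here. Members and lists were chosen with earlier results of these data known, and the pyrimidine-run length was chosen after seeing the promoters.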

Additional observations from a re-analysis of the deposited data

Results flagged for a closer look

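The 2 differences of Rplp0 with IL-4, without and with LPS, had opposite signs, and neither passed the test. It was -0.11 on the log2 scale for IL-4 minus control (adjusted p = 0.155 by limma) and 0.12 for IL-4+LPS minus LPS (adjusted p = 0.161 by limma). All IL-4 samples lay below all controls, with 359, 355 and 353 FPKM against 390.2, 383 and 381. All IL-4+LPS samples lay above all LPS samples, with 350.0, 314 and 317 FPKM against 313, 300.2 and 291, by less than 1 FPKM at the closest. Of all rows 29.5% lay wholly below control with IL-4, and 20.4% lay wholly above LPS with IL-4+LPS. The difference between both effects was 0.23 ± 0.08, with adjusted p = 0.11 by limma, and adjusted p = 0.024 by limma with the replicate number as a block.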

How the results depend on the processing

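The LPS responses depended on the scaling. With each sample scaled to its median gene, the members called lower after LPS turned from 63 to 1 and those called higher from 1 to 9, and in pretreated cells from 35 lower to 0 and from 1 higher to 20, while IL-4 minus control had 1 lower. Named members called lower whose sign changed there went, after LPS alone, to 0.011 (Rpl17), 0.048 (Rpl36a), 0.11 (Rpl36al), 0.077 (Rpl38), 0.069 (Rpl6), 0.085 (Rpl7), 0.041 (Rpl7a), 0.14 (Rpl8), 0.017 (Rplp0), 0.034 (Rps2), 0.10 (Rps27a), 0.081 (Rps29) and 0.021 (Rps4x). None of these was called higher after LPS alone. In pretreated cells such members went to 0.063 (Rpl10), 0.084 (Rpl11), 0.078 (Rpl17), 0.21 (Rpl6), 0.12 (Rpl7l1), 0.043 (Rps2), 0.092 (Rps27a), 0.19 (Rps3), 0.10 (Rps4x) and 0.14 (Rpsa). Upper-quartile scaling left 35 lower after LPS, 6 lower in pretreated cells and 2 higher in the interaction. Over the 11191 rows it called 5915, 5443 and 581 in the same order. Quantile normalization gave 72 lower and 0 higher after LPS, 12 lower with IL-4, 60 lower in pretreated cells and 3 higher in the interaction. Over all rows those calls were 4326, 2903, 2052, 4173 and 559. The median and upper-quartile settings differ from the deposited values in scaling alone. Quantile normalization also gives every sample the same distribution of values. After LPS it moved the median of all rows up by 0.32 and that of the members down, from -0.33 to -0.49.

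With the replicate number as a block, 8 members were lower with IL-4, 55 lower in pretreated cells, 31 higher in IL-4+LPS against LPS, and 4 higher and 1 lower in the interaction. Over the 11191 rows the same calls were 3183, 7206, 2287, 1145 and 1095. Relative to the members' sum the block gave 8 higher after LPS, 11 lower with IL-4, 6 lower in pretreated cells, 13 lower in IL-4+LPS against LPS and 2 lower in the interaction. In IL-4+LPS against LPS pairing was assumed from all rows, though not borne out by the members for every number. In the other comparisons the samples share only a number, with pairing correlations over all rows of 0.013 to 0.176.

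Without an expression filter 3 members were higher with IL-4 and 2 in the interaction, and 3 relative to the sum in IL-4+LPS against LPS. A filter of 1 FPKM in 3 samples left 1 higher relative to the sum in pretreated cells, the compared groups alone left 0 lower in IL-4+LPS against LPS by limma, and the Tukey test 22 lower in pretreated cells. Samples 2 and 3 only, a fit added after seeing the data, gave 14 lower with IL-4, 36 higher in IL-4+LPS against LPS, and 17 higher and 1 lower in the interaction. Relative to the sum it gave 8 higher and 9 lower after LPS, 12 and 10 with IL-4, 7 and 7 in pretreated cells, 10 and 14 in IL-4+LPS against LPS, and 3 lower in the interaction. Shares of all rows are not given for these fits, for the block relative to the sum or for the fits without 1 sample. Their counts describe the members only. The 9 tested members with under 10% of words shared were a set also added after seeing the data. They had 6 lower and 0 higher after LPS, against 57.7% lower and 16.9% higher of all rows. With IL-4 2 were higher and 0 lower, against 16.0% and 21.0%. In pretreated cells 3 were lower and 0 higher, against 57.9% and 15.0%. In IL-4+LPS against LPS 2 were higher and 0 lower, against 15.0% and 15.8%. The cause of these changes was not tested beyond fewer samples or genes.

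Leaving out 1 sample gave 3 to 12 higher and 1 to 5 lower with IL-4, 0 to 1 higher in pretreated cells, 12 to 25 higher and 0 to 1 lower in IL-4+LPS against LPS, and 0 to 2 higher in the interaction. The lowest of these came without control replicate 1 (3) and IL-4+LPS replicate 2 (12). Relative to the sum it gave 2 to 6 higher and 1 to 8 lower after LPS, 2 to 9 and 2 to 5 with IL-4, 1 to 2 higher in pretreated cells, and 3 to 6 and 2 to 5 in IL-4+LPS against LPS. The share in control, LPS, IL-4 and IL-4+LPS was 6.14%, 4.91%, 6.07% and 5.43% of the total without the 100 highest other rows, 3.32%, 2.63%, 3.34% and 2.87% without the 3 highest members, and 0.562%, 0.462%, 0.557% and 0.505% for members with little shared sequence. Its LPS decrease kept its direction in each. The planned limit on words found elsewhere in the genome was not run, because no genome was used here. Of 96 calls of named members, 15 kept their call under all 23 alternatives.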
